A study of Sus scrofa with 10 samples.

Results

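Genes of the TGF-beta and BMP pathway were described in the pig hypothalamus through 59 gene rows, out of 24951 rows that had an estimate in both groups of animals. A row was taken when its deposited gene name belongs to the TGF-beta ligands and receptors, the BMPs and GDFs, the activin and inhibin subunits, the activin receptors, the SMADs, the latent TGF-beta binding proteins, follistatin and its relatives, the BMP antagonists, endoglin or TGFBI, and when its status was OK in both groups. The rule itself uses no expression value, but the set was chosen with earlier results of these data known. All 59 rows that matched by name had an estimate, and they carry 53 gene symbols, because 6 symbols have 2 rows each. Noggin (NOG) and other names that no row carries are not analysed here.

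The hypothalamic RNA came from 10 backcross pigs (Iberian x Landrace), 5 of them high and 5 low in growth and fatness (called high pigs and low pigs here). Growth and fatness is the attribute that separates the groups in the labels, no treatment is named, and sex and age are not given in the sources used here. Each row had 1 FPKM value per group (fragments scaled by transcript length and library size, so levels can be compared between genes) with a lower and an upper bound, printed here in parentheses, and where values are given as one against another the first is that of high pigs. Values per animal were not analysed here, so the comparison has no replicate check and no p-value, and sequencing depth per sample is unknown. The tissue is mixed, and fewer cells of a type cannot be told apart from less RNA per cell.

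Ligands of this superfamily are secreted as dimers and bind a complex of type I and type II receptors, which are serine/threonine kinases. The active type I receptor phosphorylates receptor SMADs, SMAD2 and SMAD3 for TGF-beta and activin signals and SMAD1, SMAD5 and SMAD9 for BMP signals, and these enter the nucleus with the common partner SMAD4. SMAD6 and SMAD7 inhibit the pathway, latent TGF-beta binding proteins hold TGF-beta in the matrix, and secreted antagonists such as chordin and follistatin bind the ligands before they reach a receptor. In the brain the pathway is known for roles in patterning, in microglia and astrocytes, in blood vessels and in the meninges.

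None of the 59 rows had intervals that separated the groups. The 3 lowest differences on the log2(FPKM + 1) scale were those of the ligands BMP5, TGFB3 and BMP7, all lower in high pigs. On plain ratios some rows under 1 FPKM lay further apart, such as GREM1 with a ratio of 7.56 in favour of low pigs, at levels too low to read. A row was called when the deposited intervals of the groups did not overlap. That held for 0 of the 59 rows, beside 0.289% of all 24951 rows with an estimate. Intervals of the widths seen here would stop overlapping only from a median FPKM ratio of 2.41 in favour of low pigs (1.94 to 4.95 over the 42 rows with a mean of 1 FPKM or more), so smaller differences were not detectable.

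By size, 3 of those 42 rows (7.14%) differed by at least 1.5-fold on the log2(FPKM + 1) scale, beside 6.33% of 15281 rows with the same mean. All 3 were lower in high pigs, beside 4.49% of the 15281 rows past 1.5-fold in that direction, and the share is near that of rows in general. The scale adds a pseudocount of 1 and understates differences of low genes. In the same 3 rows each group's value also lay outside the other group's interval, which was so for 2.51% of the 15281 rows. That looser rule was chosen after the values were seen.

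Differences below are log2(FPKM + 1) in high pigs minus the same in low pigs. The median over the 42 rows was -0.23, and over the 15281 rows it was -0.10. The value was lower in high pigs in 32 of 42 rows, beside 67.7% of the 15281 rows. TGFB3 and BMP3 reached the mean of 1 FPKM through low pigs alone and BMP2 through high pigs alone, so their own difference bears on their being counted. Scaling the groups to each other brought the median of all rows to about 0 and gave 28 of 42, beside 49.9% (median-of-ratios) or 50.5% (quantile) of all rows, so a direction shared by many rows is partly that of the whole table. Over all 59 rows 42 were lower and 17 higher in high pigs, with a median of -0.17.

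**Figure D1:**
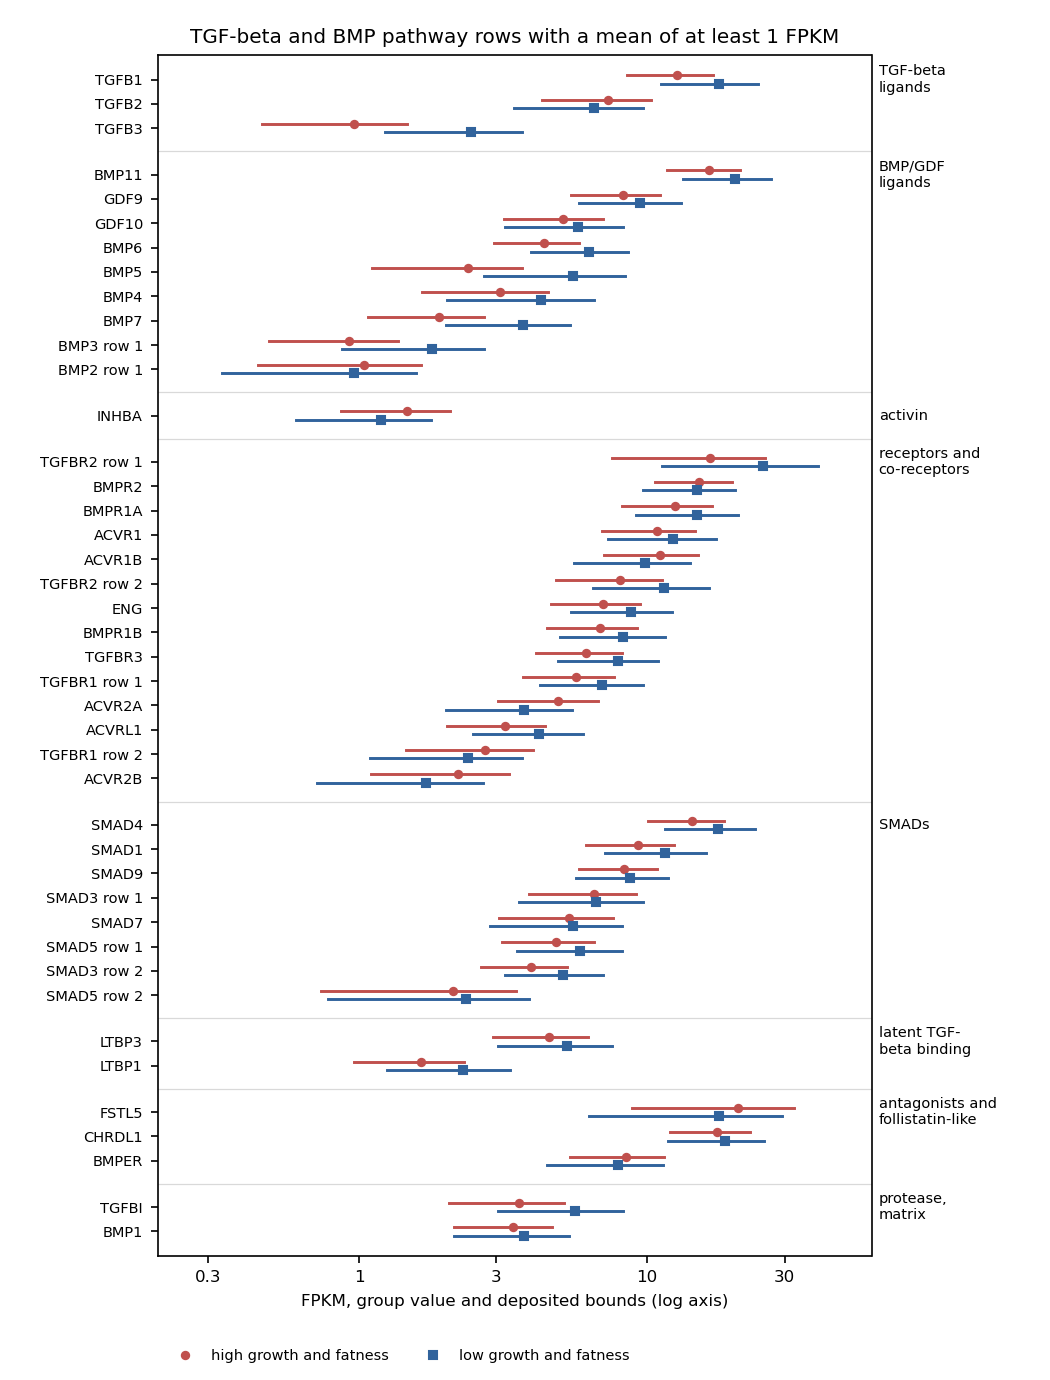
Group values (points) and deposited bounds (lines) in FPKM on a log axis for the 42 pathway rows with a mean of 1 FPKM or more, ordered by role and level, with the high group in red circles and the low group in blue squares. The intervals overlap in all 42 rows, and the points of TGFB3, BMP5 and BMP7 are the farthest apart.

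Among the TGF-beta ligands, TGFB1 was the most abundant and TGFB3 the one that differed most. TGFB3 was at 0.962 FPKM (0.460 to 1.46) in high pigs and 2.45 FPKM (1.23 to 3.68) in low pigs, a ratio of 2.55 in favour of low pigs and a difference of -0.82. The intervals shared only the stretch between 1.23 and 1.46 FPKM. TGFB3 reached the mean of 1 FPKM through the low group alone, and 2.35% of the 15281 rows had a lower difference. TGFB1, the isoform best known from microglia and immune cells, measured 12.7 FPKM (8.48 to 16.9) in high and 17.7 FPKM (11.1 to 24.3) in low pigs, a difference of -0.45. TGFB2 went the other way, at 7.31 FPKM (4.33 to 10.3) in high pigs and 6.56 FPKM (3.44 to 9.67) in low pigs. The 3 isoforms therefore kept the order TGFB1, TGFB2, TGFB3 in both groups, with TGFB1 and TGFB2 closer together in high pigs.

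The ligand rows with a BMP name had lower values in high pigs, except for the higher of the 2 BMP2 rows. BMP5 was at 2.39 FPKM (1.11 to 3.68) in high pigs and 5.53 FPKM (2.72 to 8.35) in low pigs. Its difference, -0.94, was the lowest of all 59 rows, and 1.81% of the 15281 rows lay below it. BMP7, a close relative of BMP5 and BMP6, had 1.89 FPKM (1.08 to 2.71) and 3.70 FPKM (2.0 to 5.40) in high and low pigs, a ratio of 1.96 and a difference of -0.70. For both genes the intervals overlapped by a short stretch, and the group values lay outside each other's interval.

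BMP6, the third gene of that subfamily and an iron-regulating ligand in the liver, measured 4.37 FPKM (2.94 to 5.80) in high and 6.27 FPKM (3.94 to 8.60) in low pigs, a difference of -0.44. BMP4, which patterns the ventral forebrain and hypothalamus in the embryo, had 3.09 FPKM (1.66 to 4.52) and 4.28 FPKM (2.02 to 6.54) in high and low pigs, a difference of -0.37. The intervals of both genes overlapped, although the low-pig value of BMP6 lay above its high-pig interval. BMP2, the closest relative of BMP4, was near 1 FPKM, at 1.04 against 0.958 FPKM in its higher row and at 0.379 against 0.414 FPKM in the other. BMP3, an atypical member that can oppose other BMPs, measured 0.925 FPKM (0.489 to 1.36) in high and 1.79 FPKM (0.872 to 2.71) in low pigs. Its second row, on an unplaced scaffold, had a similar ratio (1.97 against 1.94 for the first) at a lower level.

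The most abundant ligand of all was the row named BMP11, an older name of GDF11, at 16.4 FPKM (11.7 to 21.0) in high pigs and 20.1 FPKM (13.3 to 26.9) in low pigs. GDF11 resembles myostatin and signals through activin receptors. GDF9, best known from the oocyte, was at 8.23 against 9.44 FPKM, and GDF10, also called BMP3B, at 5.11 against 5.74 FPKM. The differences of these 3 rows ran from -0.28 to -0.14, and their intervals overlapped over most of their length. The other GDF rows were low. GDF1, whose identifier is CERS1 in the table of Ensembl identifiers, was at 1.10 against 0.885 FPKM and GDF3 at 0.737 against 0.981 FPKM, while GDF2, which encodes BMP9, was at 0.209 against 0.159 FPKM. GDF5 was at 0.00418 against 0.0199 FPKM, and GDF7 was at 0.00913 FPKM in high pigs and listed at 0 in low pigs.

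Over all ligand rows, low ones included, 12 of 16 BMP and GDF rows and 2 of 3 TGF-beta rows were lower in high pigs, and these directions held after both scalings. The median over the 16 BMP and GDF rows was -0.18, beside -0.01 for all 24951 rows. Of the 3 activin and inhibin subunits, INHBA, which forms activin A, had 1.47 FPKM (0.864 to 2.07) and 1.19 FPKM (0.603 to 1.78) in high and low pigs. INHA was at 0.354 against 0.261 FPKM and INHBE at 0.0218 against 0.0140 FPKM. All 3 subunit rows were thus slightly higher in high pigs, with differences of 0.01 to 0.17 that lie well inside their intervals. INHBE shares its deposited locus with other genes (11 rows in all), and its upper bounds of 0.883 and 0.910 FPKM leave its level uncertain.

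**Figure D2:**
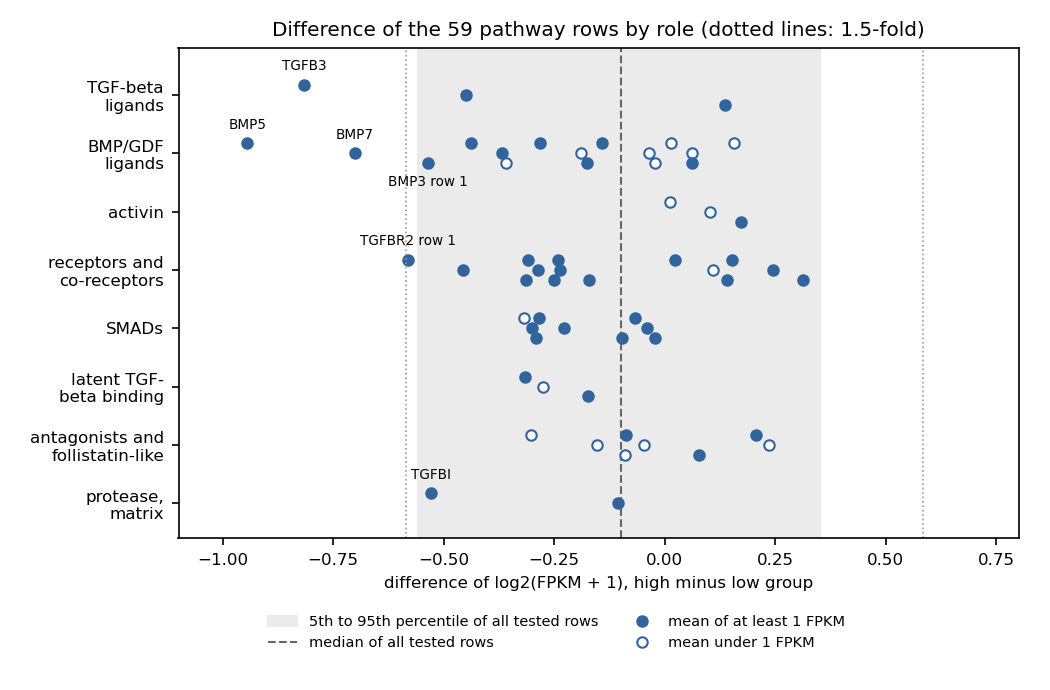
Difference of log2(FPKM + 1), high minus low group, for each of the 59 pathway rows by role, with filled points for a mean of at least 1 FPKM and open points for a lower mean. TGFB3, BMP5 and BMP7 lie left of the dotted 1.5-fold line at negative values, TGFBR2 row 1 lies just inside it, and the grey band from -0.56 to 0.35 holds the 5th to 95th percentile of 15281 rows.

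Receptors had a median of 6.86 FPKM in high and 8.26 FPKM in low pigs over 15 rows, and the 16 BMP and GDF ligand rows had medians of 1.07 and 1.39 FPKM. BMPR2, the type II receptor for BMPs, was at 15.2 FPKM (10.7 to 19.7) in high pigs and 14.9 FPKM (9.67 to 20.2) in low pigs, a difference of 0.02. Its type I partners BMPR1A and BMPR1B had 12.5 against 14.9 FPKM and 6.86 against 8.26 FPKM, with the same difference of -0.24. ACVR1, a type I receptor that binds BMP5, BMP6 and BMP7 complexes, measured 10.8 FPKM (6.94 to 14.7) in high and 12.3 FPKM (7.31 to 17.3) in low pigs. These 4 receptors differed by -0.24 to 0.02, and their intervals overlapped over most of their length.

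TGFBR2, the type II receptor for TGF-beta, had the lowest difference among receptors. Its higher row was at 16.5 FPKM (7.54 to 25.5) in high pigs and 25.2 FPKM (11.3 to 39.2) in low pigs, a difference of -0.58 that falls just short of 1.5-fold. Its other row had 8.05 FPKM (4.84 to 11.3) and 11.4 FPKM (6.46 to 16.4) in high and low pigs, a difference of -0.46. The 2 rows lie near each other on chromosome 13 and span 3948 and 2917 bases, so they may be pieces of 1 gene and are not independent. TGFBR1, the type I receptor, was split as well, and its rows disagreed in direction. The row on an unplaced scaffold was at 5.68 against 6.96 FPKM and the row on chromosome 1 at 2.73 against 2.39 FPKM.

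The co-receptors TGFBR3 (betaglycan) and ENG (endoglin) present TGF-beta and BMP ligands to the signalling receptors. TGFBR3 measured 6.15 FPKM (4.12 to 8.18) in high and 7.89 FPKM (4.89 to 10.9) in low pigs, and ENG, which marks endothelium, at 7.04 FPKM (4.64 to 9.43) against 8.80 FPKM (5.43 to 12.2). ACVRL1, the endothelial type I receptor also called ALK1, had 3.22 FPKM (2.02 to 4.42) and 4.23 FPKM (2.48 to 5.97) in high and low pigs. These 3 rows differed by -0.32 to -0.29. The median was -0.25 over the endothelial markers listed below and -0.23 over the 42 pathway rows, and a part of endothelial cells in these values was not tested.

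Of the receptors with an activin receptor symbol, ACVR1 and ACVRL1 had the lower value and ACVR2A, ACVR2B, ACVR1B and ACVR1C the higher value in high pigs. ACVR2A, a type II receptor for activin, was at 4.90 FPKM (3.04 to 6.77) in high pigs and 3.75 FPKM (2.01 to 5.49) in low pigs. Its difference, 0.31, was the highest of the 59 rows, and 94% of the 15281 rows lay below it. ACVR2B was at 2.20 against 1.70 FPKM, ACVR1B (ALK4) at 11 against 9.83 FPKM and ACVR1C (ALK7) at 0.566 against 0.452 FPKM. All of these intervals overlapped between the groups.

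The SMADs, which carry the signal into the nucleus, all had a value above 0 in both groups and differed by less than 1.5-fold on the log2(FPKM + 1) scale, while the plain ratio of SMAD6, at a mean under 1 FPKM, was 1.87 in favour of low pigs. SMAD4, the common partner, was the most abundant at 14.3 FPKM (10.1 to 18.5) in high pigs and 17.6 FPKM (11.6 to 23.6) in low pigs, a difference of -0.28. In the BMP branch SMAD1 was at 9.27 against 11.6 FPKM, SMAD9 at 8.30 against 8.74 FPKM and SMAD5 at 4.84 against 5.84 FPKM in its higher row and 2.13 against 2.34 FPKM in the other. In the TGF-beta branch the file names 2 rows SMAD3. The row ENSSSCG00000004952 was at 3.96 against 5.11 FPKM. The row ENSSSCG00000004505, at 6.52 against 6.65 FPKM, is SMAD2 in the table of Ensembl identifiers, and it lies on the stretch of chromosome 1 that holds SMAD7 and SMAD4, so its name is uncertain.

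The inhibitory SMADs differed in level. SMAD7, which is induced by TGF-beta and blocks its receptor, measured 5.34 FPKM (3.06 to 7.63) in high and 5.53 FPKM (2.85 to 8.20) in low pigs. SMAD6, which mainly restrains BMP signals, had 0.396 FPKM (0.134 to 0.659) and 0.740 FPKM (0.245 to 1.24) in high and low pigs. All 9 SMAD rows had the lower value in high pigs, with differences of -0.32 to -0.02, but those of SMAD7, SMAD9 and the row ENSSSCG00000004505 turned slightly positive after either scaling.

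All 3 latent TGF-beta binding protein rows had the lower value in high pigs, as had TGFB1 and TGFB3 but not TGFB2. That direction was shared by 67.7% of the 15281 rows and 54.3% of all 24951 rows. LTBP3 was at 4.57 FPKM (2.91 to 6.23) in high pigs and 5.29 FPKM (3.04 to 7.53) in low pigs, LTBP1 at 1.64 FPKM (0.963 to 2.32) against 2.29 FPKM (1.25 to 3.33). LTBP2, which does not bind latent TGF-beta, was at 0.262 against 0.527 FPKM. TGFBI, a matrix protein named for its induction by TGF-beta, measured 3.60 FPKM (2.06 to 5.13) in high and 5.63 FPKM (3.04 to 8.21) in low pigs, a difference of -0.53. BMP1, which despite its name is a procollagen protease that also cleaves chordin, was at 3.41 against 3.75 FPKM.

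Secreted antagonists formed a group with a few abundant members and many near the limit of detection. CHRDL1, a chordin-like BMP antagonist, was at 17.4 FPKM (12 to 22.8) in high pigs and 18.6 FPKM (11.8 to 25.3) in low pigs. Its difference of -0.09 turned positive after either scaling. BMPER, a BMP-binding regulator of endothelial signalling, had 8.42 FPKM (5.39 to 11.4) and 7.93 FPKM (4.49 to 11.4) in high and low pigs. FSTL5, a follistatin-like protein of neurons, had the highest value in high pigs of all 59 rows, at 20.6 FPKM (8.87 to 32.4) against 17.8 FPKM (6.27 to 29.3). Its row spans 246 bases, so the value rests on a short piece of the gene.

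The classical antagonists were low in both groups. FST, which neutralises activin, was at 0.786 against 0.844 FPKM and CHRD at 0.460 against 0.554 FPKM. CHRDL2 was at 0.137 against 0.264 FPKM. GREM1 was at 0.0370 against 0.280 FPKM, but its lower bound was 0 in both groups and the difference cannot be read at these levels. In all, 17 of the 59 rows had a mean under 1 FPKM, and their median half-width was 79.8% of the level for high pigs and 76.9% for low pigs, against 37.4% and 43.2% for the 42 rows above it.

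Other genes of the pathway were taken from 3 lists, which were also chosen with earlier results of these data known. Their counts therefore describe these lists only. In the list of further ligands, receptors and extracellular modulators, 32 of 40 genes were matched and 20 rows had a mean of at least 1 FPKM. The intervals of 3 of the 20 did not overlap, all lower in high pigs, beside 0.458% of the 15281 rows. They were BGN, DCN and FMOD, small leucine-rich proteoglycans of the matrix, a class in which ASPN of the same list was not called at 0.888 FPKM (0 to 2.32) against 1.395 FPKM (0 to 4.31). BGN (biglycan) was at 10.7 FPKM (7.11 to 14.3) in high pigs and 35.5 FPKM (21.2 to 49.8) in low pigs, DCN (decorin) at 7.91 FPKM (4.77 to 11.1) against 20.8 FPKM (12 to 29.6), and FMOD (fibromodulin) at 6.38 FPKM (4.20 to 8.57) against 15.6 FPKM (9.22 to 21.9). After either scaling only BGN of these 3 was still called, since the intervals of DCN and FMOD then just touched. Over the 20 rows the median was -0.19, with 15 lower and 5 higher in high pigs.

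Within the same list THBS1, which can activate latent TGF-beta, was at 3.06 FPKM (2.0 to 4.13) in high and 6.67 FPKM (4.05 to 9.29) in low pigs, with intervals that just touch. The integrin chains ITGAV and ITGB8, which form a receptor that frees TGF-beta from its latent complex in the brain, had 17.3 against 17.7 FPKM and 15.5 against 15.4 FPKM. The BMP antagonist NBL1 measured 30.6 FPKM (18.9 to 42.3) in high and 48.2 FPKM (27.7 to 68.7) in low pigs. THBS1 and NBL1 were thus lower in high pigs as values, and the integrins were nearly equal. THBS1, NBL1, ITGAV and ITGB8 were named after their values were seen.

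In the list of intracellular SMAD regulators, 29 of 34 genes were matched, and 0 of 27 rows with a mean of 1 FPKM or more had intervals that did not overlap or passed 1.5-fold. Of the 27 rows 20 were lower and 7 higher in high pigs, with a median of -0.10, equal to that of all rows, and after median-of-ratios scaling 13 were lower and 14 higher. The largest differences were those of the transcriptional co-regulator SNW1 (14.6 against 19.5 FPKM), of the endosomal protein ZFYVE16 (8.42 against 7.03 FPKM in 1 of its rows) and of TAB2, an adaptor of the kinase TAK1 (13.7 against 16.1 FPKM).

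In the list of genes that TGF-beta or BMP signals can induce, 18 of 22 genes were matched, in 21 rows. Of these, 18 rows of 15 genes had a mean of 1 FPKM or more. All 18 rows were lower in high pigs, beside 67.7% of the 15281 rows, with a median of -0.32. Among them MSX1, at 0.946 against 1.73 FPKM, reached the mean of 1 FPKM through low pigs alone. After either scaling 17 of 18 were lower, beside 49.9% (median-of-ratios) or 50.5% (quantile) of all rows. The intervals of 2 rows did not overlap, beside 0.458% of the 15281 rows, and both calls held after scaling. JUNB, which is also an immediate early gene of many other stimuli, had 2.68 FPKM (1.45 to 3.91) and 8.80 FPKM (4.80 to 12.8) in high and low pigs. The higher row of COL1A2, a gene also in the fibroblast list, measured 15.2 FPKM (10.9 to 19.6) in high and 41.4 FPKM (22.2 to 60.5) in low pigs. The other COL1A2 row, on an unplaced scaffold, was also lower in high pigs, with a difference of -1.09. That row was not called, since its intervals overlapped between 4.75 and 4.83 FPKM. ID1, a direct BMP target, had 4.61 FPKM (2.39 to 6.82) and 7.79 FPKM (3.75 to 11.8) in high and low pigs, a difference of -0.65 that fell below 1.5-fold after scaling. The other ID genes, named after their values were seen, differed by less. ID2 was at 24.3 against 33.5 FPKM, ID3 at 5.86 against 7.49 FPKM and ID4 at 38.2 against 47.4 FPKM.

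**Figure D3:**
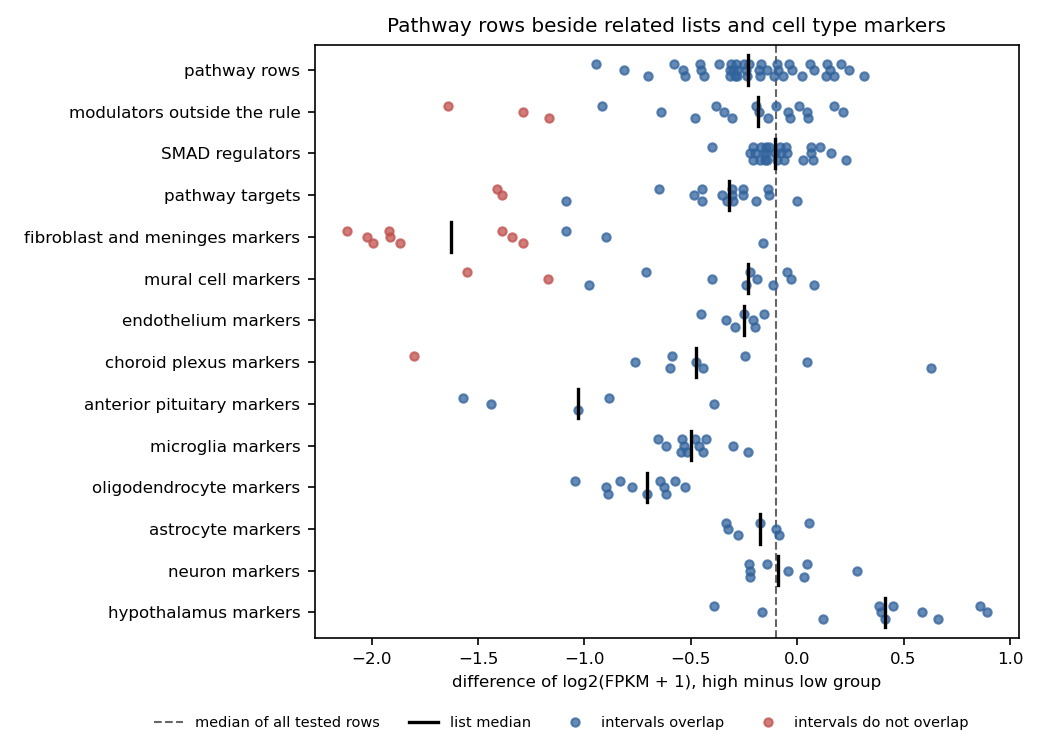
Difference of log2(FPKM + 1), high minus low group, for rows with a mean of 1 FPKM or more in the pathway, in 3 lists of related genes and in 10 marker lists, with black ticks for list medians and red points for intervals that do not overlap. The pathway rows hold no red point and have a median of -0.23, while the fibroblast and meninges markers have 9 red points and a median of -1.63.

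Marker lists of several other cell types had negative medians, beside -0.10 for the 15281 rows, of which 0.458% had intervals that did not overlap. The fibroblast and meninges list had 12 rows of 10 genes with a mean of 1 FPKM or more, all lower in high pigs. Of these, 9 had intervals that did not overlap (6 after either scaling), and the median was -1.63. SLC22A8, among the 9 and the 6, was at 0.119 against 3.23 FPKM. It reached the mean of 1 FPKM through low pigs alone, so its own difference bears on its being counted. The summed level of the list was 66.0 FPKM in high pigs and 214 FPKM in low pigs. None of its matched genes was listed at 0, and DCN and COL1A2 stand in the pathway lists too. For mural cells the median was -0.23 (95.9 against 163 FPKM summed, 2 of 12 rows not overlapping, 1 after either scaling), for endothelium -0.25 (40.1 against 49.7 FPKM, 0 of 7), for choroid plexus -0.48 (330.2 against 506 FPKM, 1 of 9) and for microglia -0.50 (443 against 634 FPKM, 0 of 12). In the mural list 11 rows were lower and 1 higher in high pigs, and in the choroid plexus list 7 were lower and 2 higher. The part of all these cell types in the values of TGFB3, BMP5, BMP7, TGFBR2, BGN, DCN and FMOD was not tested.

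Markers of the hypothalamus itself included vasopressin (AVP) at 472 against 354 FPKM, while RAX, NKX2-4, SIM1 and NR5A1 were under 1 FPKM in both groups. Over the 11 rows with a mean of 1 FPKM or more the median was 0.41, with 9 higher and 2 lower in high pigs. The 2 lower rows were POMC (84.0 against 110 FPKM) and AGRP (7.74 against 8.81 FPKM). Intervals did not overlap in 0 of the 11 rows as deposited and in 1 after quantile scaling. Neuron markers had a median of -0.09, which turned positive after scaling (0.02 and 0.12), and astrocyte markers one of -0.17. Pituitary markers (median -1.03, 387 against 750.4 FPKM summed, 0 of 5 rows not overlapping) were also lower in high pigs. Most of that sum was PRL, at 279 FPKM (174 to 384) against 570 FPKM (102 to 1039). TSHB, at 0.907 against 2.53 FPKM, reached the mean of 1 FPKM through low pigs alone, and POMC is in the hypothalamus list too. Oligodendrocyte markers (median -0.71, 3161 against 4920.4 FPKM, 0 of 11 rows not overlapping) were lower in high pigs as well. The part of pituitary and oligodendrocyte cells in the pathway values was not tested.

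The rows that differed most lie on build Sscrofa10.2 as follows, with starts counted from 1. TGFB3 (ENSSSCG00000002385) is on chromosome 7 from 105178633 to 105199719, BMP5 (ENSSSCG00000001478) on chromosome 7 from 29873202 to 29939215, and BMP7 (ENSSSCG00000007501) on chromosome 17 from 64749126 to 64840748. The higher TGFBR2 row (ENSSSCG00000011227) is on chromosome 13 from 18743778 to 18747725 and the other from 18707605 to 18710521. Each value is that of a whole gene row, so exons and untranslated regions were not separated. In all, 8 of the 59 rows share their deposited locus with another row, among them TGFB2, TGFBI, LTBP3 and BMPR1B, and 4 lie on unplaced scaffolds, so reads of these rows may be split with a neighbour or a copy.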

How the data were processed

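RNA-seq of the hypothalamus of 10 pigs (5 per group) was analysed. Tools listed, without role or order, in the submitters' processing notes are Cufflinks 2.0.2, TopHat2 2.0.5, Bowtie2, Trim Galore, CASAVA and FastQC, and the build is Sscrofa10.2. Per the file headers, the authors deposited for each gene row 1 FPKM value for either group, its lower and upper bounds and a status. The level of the bounds and how animals were pooled are not given in the sources used here. Of 25009 rows, 58 without an estimate in both groups were left out. Symbols come from the file (16804 rows) or from a table of Ensembl identifiers (963 more rows).

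Calculations used Python 3.11.15, numpy 2.4.6 and pandas 2.3.3: differences of log2(FPKM + 1), a filter at a mean of 1 FPKM for sizes and medians, and the overlap of bounds. The functions were checked on simulated data. With 1 value per group no test across animals was possible. Genes named in full were rows past a rule, the highest rows of each role and the largest differences of each list. The members and lists were chosen with earlier results of these data known. Alternatives were other pseudocounts, filters, scalings, call rules and 1 row per symbol. Values of some genes in these lists are not reported here.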

Additional observations from a re-analysis of the deposited data

How the results depend on the processing

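The count of pathway rows with intervals that do not overlap stayed at 0 under both scalings, both filters, an added FPKM ratio of 2 and 1 row per symbol. The rule that each value lies outside the other group's interval, chosen after seeing the data, gave 3 rows. The count past 1.5-fold, 3 in the main setting, was 6 with a pseudocount of 0.1, 5 with 0.5, 6 by the plain FPKM ratio (also chosen after seeing the data) and 0 when a mean of 5 FPKM was required, where TGFB3, BMP5 and BMP7 are no longer counted. All of these rows were lower in high pigs. The rows added were BMP3, TGFBR2 and TGFBI, without TGFBI at 0.5. Over all rows with the same mean the share past 1.5-fold rose too, from 6.33% in the main setting to 9.42% with a pseudocount of 0.1 and 7.74% with 0.5. It was 6.26% when a mean of 5 FPKM was required, and was not counted for the plain ratio. The median difference of the pathway rows went from -0.23 to -0.13 after median-of-ratios scaling, which moved the median of all rows by the same amount, and was -0.26 to -0.14 under the other settings. Differences changed sign in 5 of 59 rows. After median-of-ratios and quantile scaling they were 0.0782 and 0.0602 for SMAD3 (ENSSSCG00000004505), 0.0580 and 0.0320 for SMAD7, 0.0370 and 0.0064 for SMAD9 and 0.0227 and 0.0380 for CHRDL1, and after median-of-ratios scaling 0.0060 for FST. Direction and side of 1.5-fold held under all 4 pseudocount and scaling settings in 45 of 59 rows. No paired analysis was possible because either group has a single deposited value, and for the same reason no animal could be left out. Limits set by depth could not be measured, since depth is unknown.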

Other observations

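Family members that the file names otherwise, found through the table of Ensembl identifiers, were not among the 59 rows. FSTL4, a follistatin-like gene with no name in the file, was at 1.68 FPKM (0.859 to 2.50) in high pigs and 1.13 FPKM (0.445 to 1.82) in low pigs. A second FSTL5 row, also unnamed in the file, had 11.9 FPKM (8.12 to 15.7) against 10.5 FPKM (6.47 to 14.6), the same direction as the short FSTL5 row of the pathway. BMP15, an oocyte ligand that the file calls GDF9B, was listed at 0 in high pigs and at 0.0221 FPKM in low pigs.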
